A study of Mus musculus with 6 samples.

Results

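The genes described here are the mouse VEGF ligands and the receptors through which they and the angiopoietins act on blood vessels, in liver RNA of male C57BL/6 mice. The 10 genes were selected by symbol: the ligands Vegfa, Vegfb and Pgf, the receptors Flt1, Kdr, Flt4, Nrp1 and Nrp2, and the angiopoietin receptor Tek with its ligand Angpt1. All 10 had a row among the 56674 rows of the count table, 9 had reads, and those 9 passed the filter on low counts and were among the 17871 genes tested. Vegfa leads the group because it was chosen by its higher level in PB-MP in these same libraries, so its difference is given as a description with no test. The animals carried no stated genetic change. Mice kept to 71 weeks received either normal chow (control, 3 libraries) or chow with polypropylene black microplastic (PB-MP, 3 libraries), and liver was the tissue sampled in both. The labels used here give no dose of plastic and do not say that each library came from its own animal, so p-values measure the spread between these libraries, which may be technical. The study asked whether long dietary exposure to the plastic alters gene expression in the liver.

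VEGF-A is the main growth factor for blood vessel endothelium, and in liver it is made largely by hepatocytes and acts on the neighbouring sinusoidal endothelial cells. It signals through KDR (VEGFR2), while FLT1 (VEGFR1) binds VEGF-A, VEGF-B and placental growth factor and can act as a decoy. FLT4 (VEGFR3) serves VEGF-C and VEGF-D, the neuropilins NRP1 and NRP2 are coreceptors, and the angiopoietins act through TEK (TIE2) to stabilise vessels. Transcription of Vegfa is classically raised by hypoxia-inducible factors, and its mRNA is short-lived.

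Upstream sequences are shown for Vegfa and Vegfb, the pair of ligands whose libraries separated by diet. RefSeq start sites on the build GRCm38.p6 matched 9 of the 10 genes by symbol, all but Angpt1. The Vegfa window, chr17:46032378-46032627 on the minus strand, and the Vegfb window, chr19:6987652-6987901 on the minus strand, each hold the 250 bases before the start site and are printed 5′ to 3′. Capitals mark the GC box core GGGCGG and the hypoxia element cores ACGTG and GCGTG on either strand, and adjoining matches run together. The processing notes name another build (GRCm39), so the coordinates apply to the reference table only.
Vegfa: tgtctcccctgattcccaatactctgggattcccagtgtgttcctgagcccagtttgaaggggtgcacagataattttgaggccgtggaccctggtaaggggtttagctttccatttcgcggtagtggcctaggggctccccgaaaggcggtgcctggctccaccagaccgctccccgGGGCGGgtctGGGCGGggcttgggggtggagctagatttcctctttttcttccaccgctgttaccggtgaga
Vegfb: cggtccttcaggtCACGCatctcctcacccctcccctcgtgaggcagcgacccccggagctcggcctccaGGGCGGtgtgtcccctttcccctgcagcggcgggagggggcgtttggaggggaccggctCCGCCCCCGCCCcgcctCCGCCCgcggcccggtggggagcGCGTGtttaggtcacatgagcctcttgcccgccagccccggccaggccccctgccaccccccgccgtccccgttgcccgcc
The Vegfa window held 2 GC box cores and 0 hypoxia cores, and the Vegfb window held 4 GC box cores and 2 hypoxia cores, both GCGTG. Over 32851 windows of the same length from all genes in the table, 32.7% held GGGCGG, 28.2% held GCGTG and 16.6% held ACGTG. The table lists another Vegfa start site inside the gene, whose window held 1 ACGTG, 1 GCGTG and 1 GGGCGG. Sequence farther upstream than 250 bases was not searched, so a count of 0 covers the window only. A match describes these letters only, and the counts per gene do not tell which start site or isoform was used.

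The libraries held between 68357478 and 112566641 counted reads, and levels are given in CPM (counts per 1e6 reads after TMM scaling). The floor of 3 reads, the most that a gene with no read may hold by counting error alone, was worth 0.0285 to 0.0495 CPM. The summed level of 12 hepatocyte markers ran from 80955 to 95460 CPM, so the defining transcripts of liver were abundant in every library. Over all 17871 genes, 0 (0%) passed an adjusted p below 0.05 in edgeR or in limma-voom, 2161 (12.1%) had an unadjusted edgeR p below 0.05, and the libraries of the diets did not overlap for 3547 (19.8%). DESeq2 called 513 of 20865 genes (2.46%). Mitochondrial mRNAs took 14.2% to 15.1% of the reads in control and 8.73% to 10.1% in PB-MP. With the ribosomal RNA and mitochondrial rows left out, edgeR called 0 genes and gave 1.39 for Vegfa and -0.86 for Vegfb on the log2 scale, beside 1.36 and -0.89 with them.

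Vegfa stood higher in each PB-MP library than in any control library. It was measured at 37.8, 55.7 and 35.3 CPM in control replicates 1, 2 and 3, from 2758, 3373 and 3714 reads. In PB-MP replicates 1, 2 and 3 it was at 117.6, 92.7 and 121 CPM, from 9276, 7839 and 11813 reads. Control replicate 2 was the highest control and PB-MP replicate 2 the lowest PB-MP library, with a gap between them. The control mean was 42.9 ± 11.1 CPM (SD, n = 3), and the PB-MP mean of 110.5 ± 15.5 CPM (SD, n = 3) was 2.57 times as high. The edgeR estimate was a log2 fold change of 1.36 ± 0.22 (SE), with a 95% interval of 0.84 to 1.89. Leaving out single libraries gave its lowest estimate, 1.24, when control replicate 3 was dropped, and its highest, 1.57, when control replicate 2 was dropped. Beside this difference, the summed level of the 12 hepatocyte markers overlapped between the diets, at 80955 to 94235 CPM in control and 84888 to 95460 in PB-MP. Most of that sum was Alb, at 47165 to 56244 CPM in control and 49897 to 54433 in PB-MP. Single estimates lay above 0 for 7 of the 12 and below 0 for 5 (median 0.01), from -0.24 ± 0.26 (SE, Ahsg) to 1.18 ± 0.56 (SE, Apoa1). The summed level of 10 Kupffer cell markers was 140.3 to 187 CPM in control and 196, 175 and 372 CPM in PB-MP. Without PB-MP replicate 3, the library high in Kupffer cell markers, the Vegfa estimate was 1.29. In bulk liver, a change in the number of cells of a type and a change in RNA per cell cannot be told apart.

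Vegfb, the ligand that binds FLT1 and NRP1 but not KDR, lay in the other direction. Its level was 21.2, 18.0 and 17.8 CPM in the control libraries and 6.15, 11.3 and 13.3 CPM in the PB-MP libraries. The diets did not overlap, and PB-MP replicate 1 was the lowest. The control mean was 19.0 ± 1.92 CPM (SD, n = 3) and the PB-MP mean 10.3 ± 3.71 CPM (SD, n = 3). Its log2 fold change was -0.89 ± 0.30 (SE, 95% interval -1.59 to -0.18), with an unadjusted edgeR p of 0.0202 that did not pass over all genes (edgeR adjusted p = 0.333; limma-voom adjusted p = 0.269; DESeq2 adjusted p = 0.175). The estimate was below 0 under all 17 alternative settings run, between -1.17 and -0.62, and was nearest to 0 without PB-MP replicate 1. Vegfb has a short mRNA, with 1281 bases in its longest annotated transcript. Over the 3083 genes with a transcript of up to 2000 bases, the median of log2 CPM, centred per gene, was 0.08, -0.04 and 0.14 in the control libraries and -0.15, -0.17 and 0.17 in the PB-MP libraries. The part of transcript length in the Vegfb difference was not tested.

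Pgf, which encodes placental growth factor, another ligand of FLT1, had 0 reads in all 6 libraries, which allows up to 0.0285 to 0.0495 CPM per library. That limit is below the level of every other gene of the group in every library. A count of 0 in these files is not read as absence. Cdh5, the endothelial cadherin, had 0 CPM in control replicate 1 and 4.02 CPM or more in the other 5 libraries, and 28 of the 12389 genes with a median of at least 1 CPM had a library with 0 reads.

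The balance of the ligands within each library does not depend on how libraries are scaled. Vegfa had 1.78, 3.09 and 1.99 reads per Vegfb read in the control libraries and 19.1, 8.18 and 9.09 in the PB-MP libraries. The control ratio averaged 2.29 ± 0.700 (SD, n = 3) and the PB-MP ratio 12.1 ± 6.07 (SD, n = 3). PB-MP replicate 1, the library with the least Vegfb, set the highest value. Against its receptor, Vegfa had 1.83, 2.11 and 1.90 reads per Kdr read in control and 5.69, 3.72 and 6.58 in PB-MP. Neither ratio overlapped between the diets. Both carry the Vegfa difference by which the group was chosen and are descriptions.

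**Figure D1:**
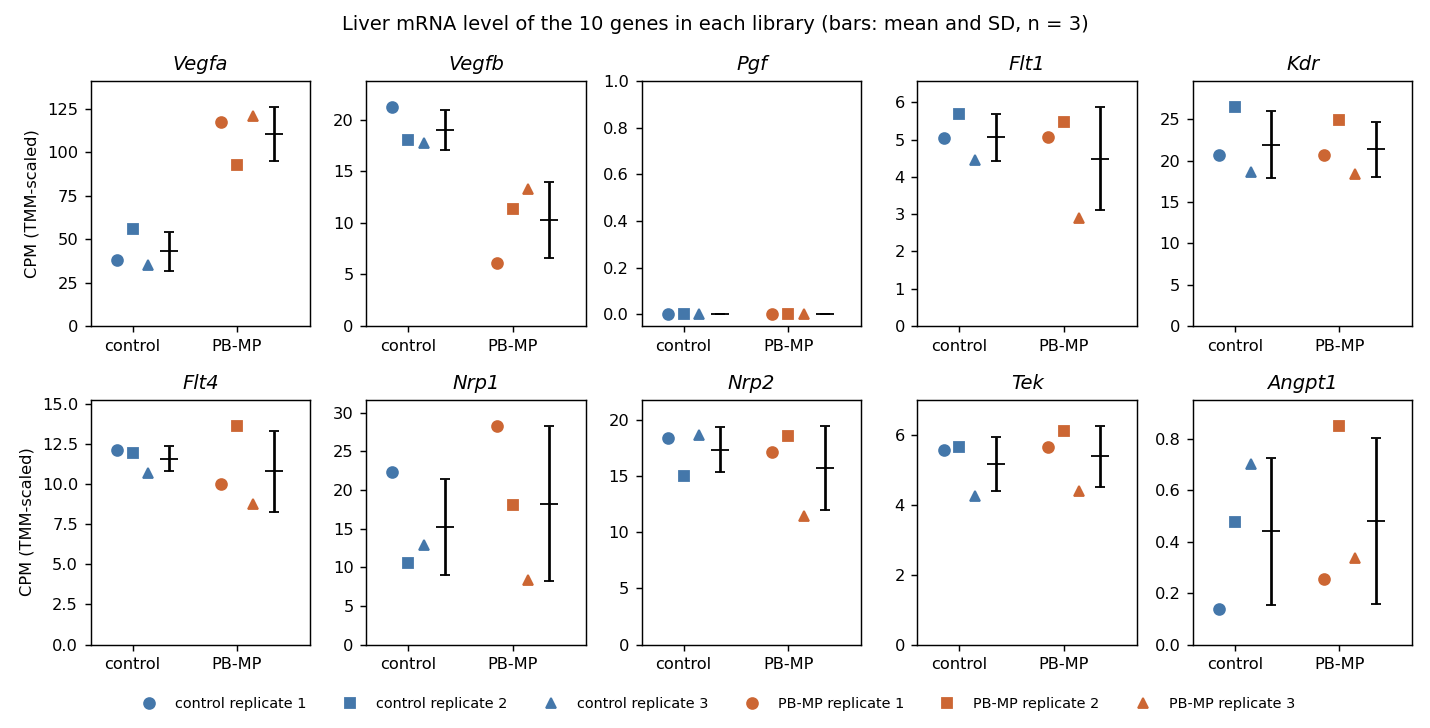
Level of each gene in every library, in TMM-scaled CPM on a linear axis from 0, with control in blue and PB-MP in orange; symbols mark the replicate and bars the mean and SD of 3 libraries. Vegfa and Vegfb separate by diet in opposite directions, Pgf is at 0 throughout, and the other 7 genes overlap.

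None of the vascular receptors differed between the diets past the threshold, and the libraries of the groups overlapped for each of them. Kdr, the main signalling receptor for VEGF-A, was at 20.7, 26.4 and 18.6 CPM in control and at 20.7, 24.9 and 18.4 CPM in PB-MP. Its log2 fold change was -0.04 ± 0.21 (SE, 95% interval -0.53 to 0.45, edgeR adjusted p = 0.957). A 2-fold difference in either direction lies outside that interval.

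Flt1, the high-affinity receptor shared by VEGF-A and VEGF-B, was at 5.04, 5.69 and 4.44 CPM in control and 5.06, 5.48 and 2.90 CPM in PB-MP. PB-MP replicate 3 was the lowest library, and the other 5 lay close together. The log2 fold change was -0.17 ± 0.29 (SE, 95% interval -0.85 to 0.50, edgeR adjusted p = 0.843). Flt4, the receptor of VEGF-C and VEGF-D, which adult sinusoidal and lymphatic endothelium carries, was at 12.2, 11.9 and 10.7 CPM in control and 10.1, 13.7 and 8.78 CPM in PB-MP. The PB-MP libraries spread to both sides of the controls. Its log2 fold change was -0.10 ± 0.22 (SE, 95% interval -0.61 to 0.41, edgeR adjusted p = 0.884).

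The coreceptor Nrp1 varied most between libraries of a diet among the receptors. The control libraries held 22.3, 10.5 and 12.8 CPM. The PB-MP libraries held 28.3, 18.1 and 8.30 CPM in the order of their numbers, so the highest and the lowest library were both PB-MP. Its log2 fold change of 0.26 ± 0.47 (SE, edgeR adjusted p = 0.859) had a 95% interval of -0.85 to 1.37, which leaves a 2-fold higher level possible. Without PB-MP replicate 1 the estimate was -0.20. Nrp2, the coreceptor that also pairs with FLT4 and binds semaphorins, was at 18.5, 15.1 and 18.7 CPM in control and 17.1, 18.6 and 11.5 CPM in PB-MP. PB-MP replicate 3 was again the lowest library. The log2 fold change was -0.14 ± 0.23 (SE, 95% interval -0.69 to 0.40, edgeR adjusted p = 0.839).

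Tek, the angiopoietin receptor, was at 5.58, 5.68 and 4.27 CPM in control and 5.65, 6.11 and 4.41 CPM in PB-MP. Both diets had their lowest library in replicate 3, and the log2 fold change was 0.06 ± 0.23 (SE, 95% interval -0.48 to 0.60, edgeR adjusted p = 0.938). Angpt1, the activating ligand of TEK, was the scarcest of the 9 genes with reads, with 10, 29 and 74 reads in control and 20, 72 and 33 in PB-MP. The levels were 0.137, 0.479 and 0.704 CPM in control and 0.254, 0.851 and 0.338 CPM in PB-MP. Its log2 fold change of 0.12 ± 0.69 (SE, 95% interval -1.50 to 1.73, edgeR adjusted p = 0.960) does not bound a 2-fold difference at this depth. An antisense gene of the reference annotation, Gm17473, overlaps 14.2% of the Angpt1 exons and had 3 reads over all libraries.

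Counted over the group, 0 of the 9 tested genes passed an adjusted p below 0.05 in edgeR, against 0% of all genes. Of the 8 besides Vegfa, 1 (Vegfb) had an unadjusted p below 0.05, against 12.1% of all genes, and 1 had diets that did not overlap, against 19.8%. DESeq2 called 1 of the 9, which was Vegfa, against 2.46% of all genes, and nothing is read from that call because its level chose it. The median log2 fold change was -0.04 over the 9 genes and 0.01 over all genes tested, and without PB-MP replicate 3 it was 0.058 over the 9. With library size as the only scaling, the median of all genes moved to 0.23, and Flt1, Kdr, Flt4 and Nrp2 then had estimates of 0.05, 0.18, 0.11 and 0.07, above 0 but below that median.

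**Figure D2:**
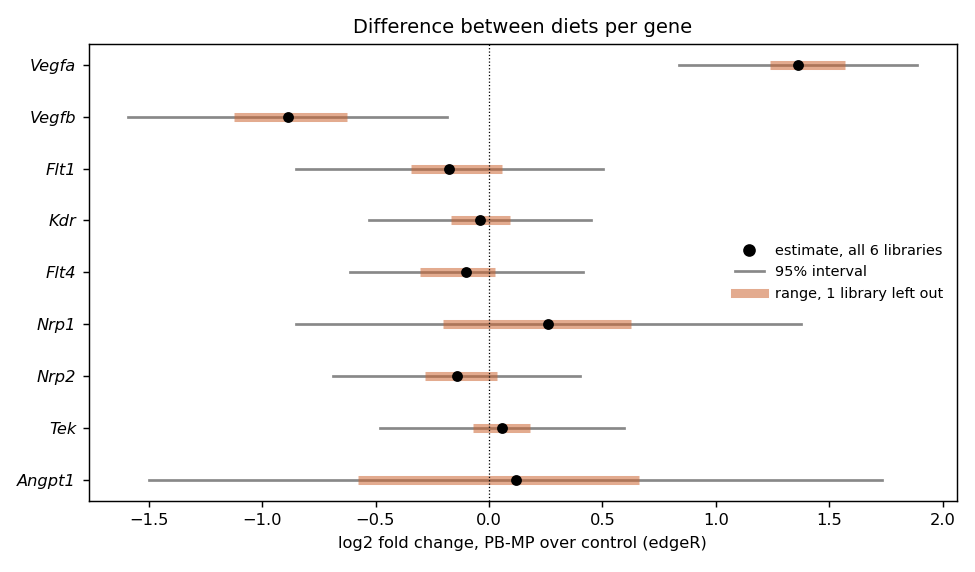
Log2 fold change of PB-MP over control for the 9 genes with reads (points), with the 95% interval of the edgeR fit (grey) and the range of estimates when each library is left out in turn (orange). Vegfa is drawn as a description, since its level chose it; the interval of Vegfb, unadjusted for the number of genes, lies below 0, and those of the other 7 genes span 0.

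The receptors were also set against endothelial content, which bulk RNA does not fix. The summed level of 14 panendothelial markers was 94.7 to 97.4 CPM in control and 82.3 to 113.04 CPM in PB-MP, and that of 12 sinusoidal endothelial markers was 133 to 163 CPM in control and 107 to 174 CPM in PB-MP, so the ranges overlapped. Pecam1, an adhesion molecule of endothelial junctions, had a log2 fold change of -0.19 ± 0.19 (SE), Eng, a TGF-beta coreceptor, -0.16 ± 0.16, and Lyve1, a hyaluronan receptor, 0.01 ± 0.29. The farthest from 0 were Egfl7, a secreted endothelial protein, at 0.66 ± 0.33 among panendothelial markers, and Gata4, a transcription factor of sinusoidal endothelium, at -0.43 ± 0.18 among sinusoidal markers, the 1 endothelial marker whose diets did not overlap. Panendothelial estimates lay above 0 for 8 and below 0 for 6 (median 0.04), and sinusoidal estimates for 6 and 6 (median -0.01). Without PB-MP replicate 3 these medians were -0.14 and -0.10. In that fit Egfl7 was at 0.21 ± 0.19 and Fcgr2b, a sinusoidal Fc receptor, at -1.57 ± 0.56. There 0 panendothelial markers and 1 sinusoidal marker, lower, had an unadjusted edgeR p below 0.05. Of all 18343 genes in that fit, 1155 were higher and 1102 lower at that threshold. Some defining markers varied widely between libraries of a diet. Stab2, a scavenger receptor of sinusoidal endothelium, was at 23.3, 4.29 and 19.4 CPM in control and 3.26, 31.1 and 2.51 CPM in PB-MP, and Clec4g, a sinusoidal lectin, reached 38.6 CPM in PB-MP replicate 3 against 15.8 to 23.4 CPM elsewhere. With all 6 libraries, 0 of the 26 endothelial markers passed in edgeR and 0 had an unadjusted p below 0.05, beside 12.1% of all genes. Diets without overlap, found for 1 of them, were found for 19.8% of all genes.

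Relative to the mean log2 level of the 24 endothelial markers with a mean of at least 1 CPM, each receptor overlapped between the diets. The 24 include Cdh5, whose 0 reads in control replicate 1 lower the mean there and so raise every receptor in that library. Small differences can turn on this, and the levels were not computed without Cdh5. Differences (PB-MP minus control, log2) were -0.20 for Flt1, -0.04 for Kdr, -0.12 for Flt4, 0.16 for Nrp1, -0.16 for Nrp2 and 0.05 for Tek. The exact permutation p (two-sided) was 0.8 or 0.9 for each, and 0.9 after adjustment over the 6 receptors, in a design whose smallest p is 0.1. By replicate, Kdr was at 1.505, 1.81 and 1.33 in control and 1.74, 1.65 and 1.15 in PB-MP, and Nrp1 at 1.61, 0.51 and 0.81 in control and 2.18, 1.20 and 0.04 in PB-MP. For all 6 receptors, PB-MP replicate 3 was the lowest of the 6 libraries. Without it, the differences for Flt1, Kdr, Flt4 and Nrp2 turned to 0.14, 0.15, 0.10 and 0.13. That library also stood apart by transcript length: the 2591 genes with a transcript of over 5000 bases had a median centred log2 CPM of -0.24 in PB-MP replicate 3, against -0.05, 0.12 and -0.07 in control and 0.15 and 0.19 in the other PB-MP libraries. The longest transcripts of Flt1, Kdr, Flt4 and Nrp2 have 6895, 5924, 6255 and 6723 bases. Those of Nrp1 and Tek, also lowest in that library relative to the markers, have 3645 and 4654 bases. The 6497 genes with a transcript of over 2000 and up to 5000 bases had a median of -0.03 in PB-MP replicate 3. Their medians were 0.03, -0.01 and 0.03 in control and 0.02 and 0.02 in the other PB-MP libraries. The part of length in the levels of the 6 receptors was not tested.

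**Figure D3:**
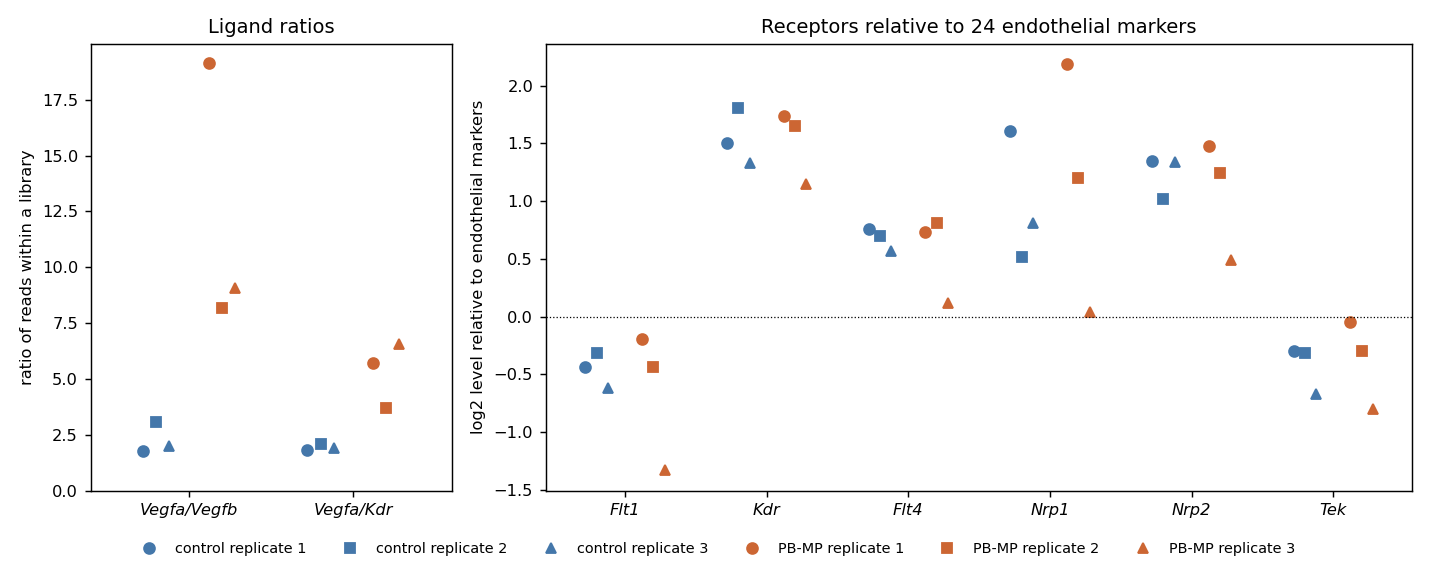
Left, reads of Vegfa per read of Vegfb or of Kdr within each library (linear axis from 0); right, log2 level of each receptor minus the mean log2 level of 24 endothelial markers, with control in blue, PB-MP in orange and symbols for the replicate. The Vegfa ratios separate by diet, and for each receptor the diets overlap with PB-MP replicate 3 lowest.

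Levels can be compared between genes only per length, here as CPM per kilobase of the exons of all annotated transcripts together. In control, Vegfb at 11.8 ± 1.19 and Vegfa at 10.02 ± 2.59 (SD, n = 3) headed the group, and their libraries overlapped. In PB-MP, Vegfa at 25.8 ± 3.63 stood above Vegfb at 6.40 ± 2.31 without overlap. The receptors followed at lower levels per kilobase. In control they were Kdr at 2.43 ± 0.449, Nrp1 at 1.55 ± 0.637, Nrp2 at 1.47 ± 0.170, Flt4 at 1.41 ± 0.0931, Tek at 1.10 ± 0.167 and Flt1 at 0.374 ± 0.0464, and Angpt1 was at 0.0845 ± 0.0548. The libraries of Kdr and Nrp1 overlapped in control, as did those of Nrp1, Nrp2 and Flt4, while Flt1 lay below Tek in every library. The order of the genes was the same in PB-MP except that Vegfa and Vegfb changed places. Per kilobase of the longest transcript, Nrp1 (4.17 ± 1.71 in control) ranked above Kdr (3.70 ± 0.684), since its longest annotated transcript has 3645 of its 9785 exon bases.

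The other ligands, receptors and partners of the pathway, 17 tested of 20 listed, included 0 genes past the threshold and 0 with an unadjusted p below 0.05. Over all genes these shares were 0% and 12.1%. Vegfc and Vegfd, the ligands of FLT4, had log2 fold changes of 0.03 ± 0.22 and 0.76 ± 0.42 (SE), and Angpt2, the context-dependent antagonist of TEK, 0.44 ± 0.64. Tie1, the partner of TEK, was at -0.10 ± 0.19 and Plxnd1, a semaphorin receptor of endothelium, at 0.17 ± 0.20. Plxna2, a semaphorin receptor, and Gipc1, an adaptor that binds NRP1, were at 0.45 ± 0.21 and -0.27 ± 0.19. The median of the list was 0.10.

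No gene of oxygen sensing, and none of the genes known to be induced by hypoxia, passed the threshold in edgeR, and neither did any of the 17871 genes tested. Of 12 tested genes of oxygen sensing, 0 passed in edgeR and 0 had an unadjusted p below 0.05, beside 12.1% of all genes. Estimates lay below 0 for 9 of the 12 (median -0.20), against 7 without PB-MP replicate 3 (median -0.09). Hif1a, the oxygen-regulated subunit of HIF-1, was at 7.55, 13.3 and 7.05 CPM in control and 14.3, 17.0 and 3.05 CPM in PB-MP, so the PB-MP libraries bracketed the controls. Epas1, which encodes HIF-2 alpha, had a log2 fold change of -0.22 ± 0.20 (SE), and Egln1, a prolyl hydroxylase that marks HIF for destruction, -0.37 ± 0.25. Egln3, another HIF hydroxylase and itself a HIF target, was at 18.3, 17.9 and 19.3 CPM in control and 17.0, 13.2 and 14.3 CPM in PB-MP, lower in each PB-MP library than in any control. Its log2 fold change was -0.32 ± 0.17 (SE, edgeR adjusted p = 0.502). Vhl, which recruits the ligase for HIF, was at -0.27 ± 0.17, and Egln2 and Cited2 at -0.19 ± 0.15 and -0.16 ± 0.16. The diets did not overlap for 3 of the 12 (Egln3, Vhl and Cited2, all lower), beside 19.8% of all genes in either direction.

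Among 22 tested hypoxia-induced genes, 0 passed, and 11 estimates lay on each side of 0 (median -0.02). Of these genes 1 higher and 1 lower had an unadjusted p below 0.05, beside 12.1% of all genes. The higher one was Hmox1, heme oxygenase, at 0.57 ± 0.24 (SE, edgeR adjusted p = 0.404). The lower one was Hk2, hexokinase 2, at -0.83 ± 0.26 (SE, edgeR adjusted p = 0.319). Without PB-MP replicate 3, 8 estimates lay above and 14 below 0 (median -0.13), and 0 higher and 2 lower had an unadjusted p below 0.05. Hmox1 was at 12.0, 10.9 and 12.3 CPM in control and 14.1, 15.1 and 23.1 CPM in PB-MP. Slc2a1, the glucose transporter GLUT1, was at -0.13 ± 0.18, Ndrg1 at -0.30 ± 0.29, Bnip3, a mitophagy receptor, at 0.15 ± 0.19 and Adm, the vasodilator adrenomedullin, at -0.15 ± 0.52. Vegfa itself belongs to the classical targets and was not counted in this list.

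Of 12 regulators of Vegfa transcription and mRNA, 0 passed and 2 had an unadjusted p below 0.05, both higher, beside 12.1% of all genes in either direction. The median was 0.17, and 0.31 without PB-MP replicate 3. Zfp36 encodes tristetraprolin, which binds AU-rich elements and speeds decay of mRNAs that include Vegfa. Its level was 41.4, 32.7 and 34.6 CPM in control and 56.1, 48.5 and 56.8 CPM in PB-MP, with no overlap, a difference of 0.57 ± 0.16 on the log2 scale (SE, edgeR adjusted p = 0.267). Ctcf, the chromatin insulator protein, was at 10.02, 11.3 and 5.66 CPM in control and 15.3, 14.0 and 17.0 CPM in PB-MP (0.78 ± 0.28, edgeR adjusted p = 0.354). These were the 2 of the 12 whose diets did not overlap, beside 19.8% of all genes in either direction. Zfp36l1, a relative of Zfp36, was at 0.14 ± 0.29, Elavl1, which stabilises AU-rich mRNAs, at -0.12 ± 0.18 and Atf4 at 0.34 ± 0.24.

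Downstream of the receptors, 32 signalling genes were tested and 0 passed in edgeR. Estimates lay below 0 for 26 of them (median -0.14, against 0.01 over all genes). An unadjusted p below 0.05 was found for 2, both lower, beside 12.1% of all genes in either direction. Without PB-MP replicate 3, estimates lay below 0 for 18 of the 32 (median -0.08). One of them, Hspb1, a small heat shock protein phosphorylated below KDR and p38, was at 31.3, 22.7 and 24.1 CPM in control and 5.01, 13.5 and 10.6 CPM in PB-MP, a difference of -1.43 ± 0.36 on the log2 scale (SE, edgeR adjusted p = 0.247). It was the 1 gene of the 119 listed pathway genes called by DESeq2 (adjusted p = 0.0139). Nos3, the endothelial nitric oxide synthase, was at -0.35 ± 0.32 and Plcg1, a phospholipase that docks on KDR, at 0.42 ± 0.39.

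Genes that VEGF is known to induce in endothelium, with the Notch genes of sprouting vessels, gave 16 tested, 0 past the threshold and 1 with an unadjusted p below 0.05 (median -0.06). That gene was Dll1, a Notch ligand, at 2.18, 1.90 and 2.29 CPM in control and 4.41, 3.45 and 2.74 CPM in PB-MP, a difference of 0.73 ± 0.26 on the log2 scale (SE, edgeR adjusted p = 0.345). Esm1, a marker of tip cells that depends on VEGF, was at 0.10 ± 0.38 (SE), Dll4, the Notch ligand of tip cells, at 0.02 ± 0.35, Notch1 at 0.10 ± 0.29 and Vcam1, an adhesion molecule, at -0.43 ± 0.19. Over the 111 tested pathway genes together, 7 had an unadjusted p below 0.05, 4 higher and 3 lower, beside 12.1% of all genes.

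Markers of the other cell types in liver were read in the same way, and none passed in edgeR. The 10 Kupffer cell markers all had estimates above 0 (median 0.52), beside 9045 of the 17871 genes tested. Of the 10 markers 3 had an unadjusted p below 0.05, beside 12.1% of all genes in either direction. Without PB-MP replicate 3, 8 of the 10 lay above 0 (median 0.11) and 0 had an unadjusted p below 0.05. Marco, a macrophage scavenger receptor and the 1 of them called by DESeq2, was at 30.3 CPM in PB-MP replicate 3 and 4.61 CPM or less elsewhere, and Vsig4, a complement receptor, had a log2 fold change of 0.88 ± 0.36 (SE), or 0.36 ± 0.20 without that library. Summed stellate cell markers ran from 456 to 479 CPM in control and 234 to 464 CPM in PB-MP (median log2 fold change -0.29), and summed adipocyte markers from 23.7 to 71.3 and from 9.59 to 25.4 CPM (median -1.89 over 5 tested). Of those 5, 3 had an unadjusted p below 0.05, beside 12.1% of all genes in either direction. All 3 were lower and without overlap between the diets, beside 19.8% of all genes without overlap in either direction. DESeq2, which called 2.46% of all genes in either direction, called 2 lower. These were Cfd, the complement protease adipsin (log2 fold change -3.11 ± 0.65, DESeq2 adjusted p = 3.15e-05, edgeR adjusted p = 0.207), and Cidec, a lipid droplet protein (-1.89 ± 0.61, DESeq2 adjusted p = 0.0257, edgeR adjusted p = 0.325). Cidec is also expressed in fatty hepatocytes. Within the adipocyte sums it held 57.9, 13.9 and 41.7 CPM in control and 12.8, 4.23 and 13.5 CPM in PB-MP. The other 2 of the 5 tested, Fabp4 and Adrb3, had estimates above 0, at 0.26 ± 0.32 and 0.69 ± 0.74 (SE). The defining adipocyte markers were at or near 0, with Lep at 0 in all libraries and Adipoq and Plin1 too low to test. Cholangiocyte markers had a median of 0.22 over 6 tested and mesothelial markers -0.05 over 5, and their summed ranges overlapped between the diets. The part of these cell types in the Vegfa and Vegfb values was not tested.

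**Figure D4:**
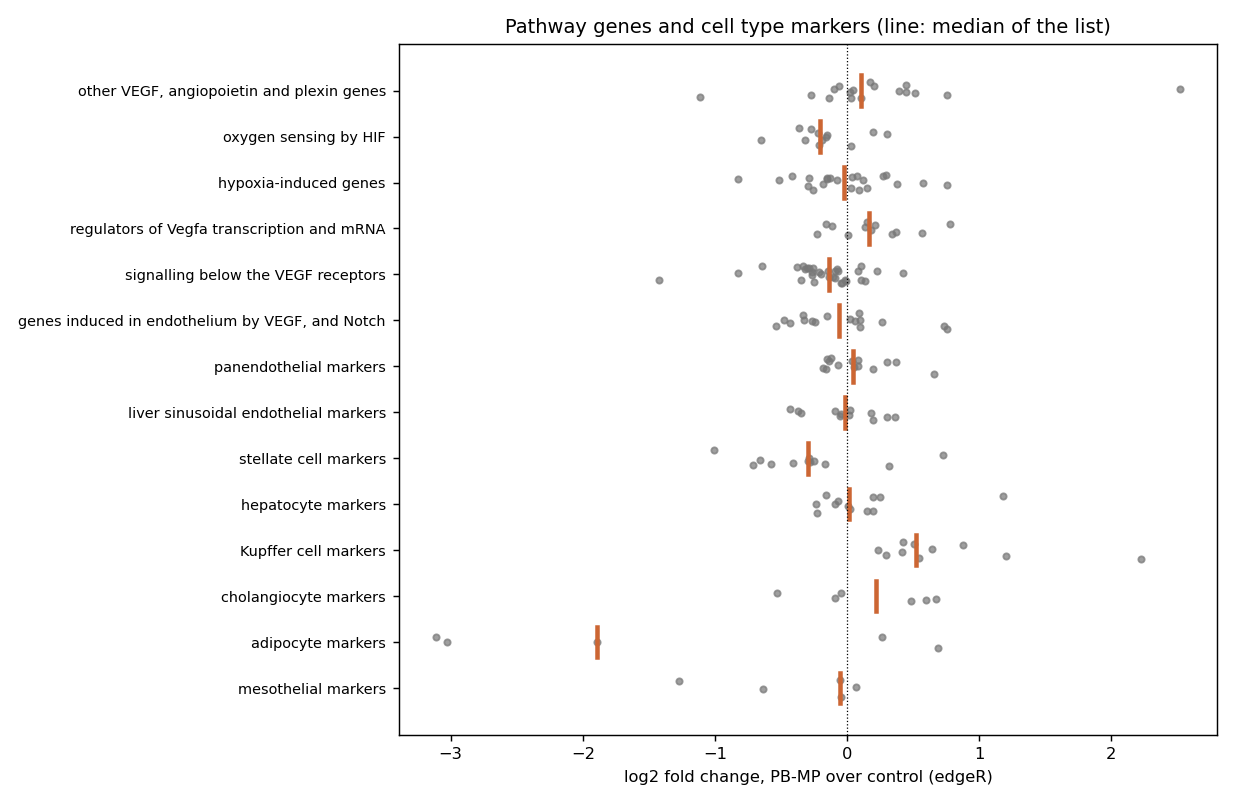
Log2 fold change of PB-MP over control for each tested gene (points) of the 6 pathway lists and 8 marker lists, with the median of each list as an orange line. List medians lie between -0.29 and 0.52 except for adipocyte markers at -1.89.

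Genes like Vegfa across the 6 libraries were found by the root mean square difference of log2 CPM, centred per gene. The search covered tested genes of at least 1 CPM, and the genes named are not shown to be the nearest of all these. They were Clasrp, which encodes a serine/arginine-rich protein bound by CLK4 (difference 0.11), Vamp1, a vesicle SNARE (0.11), Ciz1, a nuclear matrix zinc finger protein (0.13), Snapc3, a subunit of the small nuclear RNA activating complex (0.13), and Taf1d, a subunit of the RNA polymerase I selectivity factor (0.14). In each of them control replicate 2 was the highest control library, as for Vegfa, and the diets did not overlap. Both features come with the choice of genes by their likeness to Vegfa and are no separate result. Clasrp was at 3.75, 5.68 and 3.63 CPM in control and 10.5, 9.57 and 11.6 CPM in PB-MP. Within the group, Tek (0.72) and Kdr (0.75) were the least distant from Vegfa and Vegfb the most (1.23). These distances describe 6 libraries and carry no test.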

How the data were processed

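Poly(A)-selected liver RNA was sequenced from libraries built with a directional kit, per the labels' protocols. The submitters' processing notes name bcl2fastq and GRCm39 without their roles, and for the aligner, the counting program and the strand setting nothing is stated in the labels or headers used. The deposited values are whole-number counts of reads per gene, as the authors left them before any scaling. The table of all 6 libraries was identical to the 6 single files. Of rows sharing a name (939, with 0.0308% of the reads), that with most reads kept it.

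Genes were kept by filterByExpr (minimum count 10, minimum total count 15) and, after TMM scaling, compared by edgeR 4.0.16 (R 4.3.3; glmQLFit and glmQLFTest), with Benjamini-Hochberg adjustment over 17871 genes at 0.05. The SE is the log2 fold change divided by the square root of F. Log2 levels used CPM + 0.5. Alternatives used DESeq2 1.42.0, limma 3.58.1, other scalings and filters, robust estimation, a replicate block, ribosomal and mitochondrial rows left out, and libraries left out (for the lists, chosen after the data were seen). The edgeR script was tested on simulated data. No pair of libraries agreed within sampling noise (chi-square per degree of freedom at least 181).

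The genes, lists and tests were chosen with earlier results of these data known. The text names all 10 genes, preset pathway and marker genes, and 5 genes like Vegfa. It also names up to 2 further genes of smallest p per list (mean of 1 CPM or more). Others were named after their values were seen. A signalling gene that the rule would name is not reported here. Lengths and overlaps came from GENCODE M21 on GRCm38, and promoters from RefSeq on GRCm38.p6.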

Additional observations from a re-analysis of the deposited data

How the results depend on the processing

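The estimates for Vegfa (1.24 to 1.595) and Vegfb kept their direction under all 17 alternative settings. For Vegfa this is a description only, since its level in these same libraries chose it. Whether the replicate numbers pair the libraries is not settled. The deviations of same-numbered libraries from their group means had correlations of -0.09, 0.09 and 0.08. Those of differently numbered libraries lay between -0.14 and 0.08. The share of 18S ribosomal RNA ranked alike by replicate in both diets, at 2.92%, 11.2% and 1.15% in control replicates 1, 2 and 3. In PB-MP replicates 1, 2 and 3 it was 3.61%, 9.42% and 0.71%. With a replicate block edgeR called 0 genes and gave 1.39 for Vegfa and -0.95 for Vegfb. Over all genes, DESeq2 called 513, edgeR called 2 when control replicate 2 was dropped along with PB-MP replicate 3, 0 or 1 with 1 library left out (1 without control replicate 1), and 2161 had an unadjusted p below 0.05. The corresponding counts were 1 and 2 for the 9 genes described (DESeq2, unadjusted) and 1 and 7 for the pathway genes. Both counts for the 9 genes include Vegfa, for which nothing is read from a call. Small estimates turned sign, and the cause was not tested. With library size only they were 0.047 (Flt1), 0.18 (Kdr), 0.11 (Flt4) and 0.071 (Nrp2). Without control replicate 2 and PB-MP replicate 3 they were 0.14 (Flt1), 0.20 (Kdr) and 0.039 (Flt4), and relative to endothelial markers 0.21 (Flt1), 0.28 (Kdr), 0.11 (Flt4) and 0.019 (Nrp2). With 1 library left out, estimates ran from -0.35 to 0.058 (Flt1), -0.17 to 0.091 (Kdr), -0.30 to 0.028 (Flt4), -0.20 to 0.62 (Nrp1), -0.28 to 0.037 (Nrp2), -0.069 to 0.18 (Tek) and -0.58 to 0.66 (Angpt1). Relative to endothelial markers they ran from -0.43 to 0.14 (Flt1), -0.15 to 0.15 (Kdr), -0.25 to 0.10 (Flt4), -0.36 to 0.71 (Nrp1), -0.37 to 0.13 (Nrp2) and -0.12 to 0.26 (Tek). Kdr was at 0.063 against sinusoidal markers only and at 0.036 against the median of the markers, a setting added after the data were seen, and Tek at -0.051 against panendothelial markers only. Angpt1 lay below the filter of 1 CPM and has no value there. With 3 libraries a group, the 95% intervals exclude a 2-fold difference for the receptors other than Nrp1, and do not for Angpt1, which had 238 reads in all.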
